A study of Mus musculus with 7 samples.

Results

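The 9 genes described here write, read or remove DNA methylation: Uhrf1, Uhrf2, Dnmt1, Dnmt3a, Dnmt3b, Tet1, Tet2, Tet3 and Mbd2. They were taken by symbol from GENCODE vM21 and are 9 of the 48795 gene identifiers in the deposited count table. Bulk RNA sequencing was done on light zone germinal centre B cells, the cells that have left the dividing dark zone to test their antigen receptor, sorted from spleens of mice given sheep red blood cells by vein 10 days earlier. The 7 libraries are 3 of genotype MIZ1KO, named MizFF in the sample titles, and 4 of genotype Control, named eYFP there. MIZ1 is the zinc finger transcription factor encoded by Zbtb17, a partner of MYC. Both groups were immunised alike. The sources used here do not give the driver of the deletion, the age and sex of the mice, or whether the libraries are from separate animals. The p-values therefore measure only how far these libraries spread, which may be technical.

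The study asked what MIZ1 deficiency does to light zone B cells by comparing MIZ1KO with Control. Zbtb17 itself measured 5.16, 3.70 and 4.50 CPM in the MIZ1KO libraries and 3.15, 3.42, 3.15 and 7.02 CPM in the Control libraries, where CPM are counts relative to the scaled library size. The groups overlapped, and since the counts cover the whole gene, transcript outside a deleted part stays in them, so this level is no check of the labels. Library totals ran from 6896673 to 9482453 estimated counts, of which 3087992 to 5085019 lay outside ribosomal RNA. All 11 germinal centre B cell markers looked for were measured, among them Bcl6 at 269 CPM in MIZ1KO and 219.7 CPM in Control. Nuclear RNA, here the unspliced TEC models of GENCODE with Malat1 and Xist, took a smaller share of non-ribosomal counts in MIZ1KO, 1.55% ± 0.412 (SD, n = 3), than in Control, 4.55% ± 1.64 (SD, n = 4), with no overlap between the groups (two-sided exact permutation p = 0.0571, where the smallest p of the 35 splits is 0.0286). The share was looked at because it moved with the groups in earlier results of these data. Its p and its lack of overlap are therefore a description and not independent support. Several genes below move with this share, and its values are given beside them.

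DNA methylation is copied after replication by DNMT1, which is brought to hemimethylated DNA by UHRF1, a protein that reads both the methyl group and a histone mark and ubiquitinates histone H3. DNMT3A and DNMT3B set new methylation, the TET enzymes oxidise 5-methylcytosine as the step towards its removal, and MBD2 reads methylated CpG for the NuRD repressor complex. Germinal centre B cells divide fast, so the copying step is in steady demand, and the human counterparts TET2 and DNMT3A are recurrently mutated in lymphoid and myeloid malignancies.

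Start-site windows were those of RefSeq on GRCm38.p6, each from 250 bases before a transcript start to 50 after it. Mbd2 was left out of this search, and the other 8 of the 9 genes had 13 windows in all. They are shown for the genes whose transcripts moved most, Uhrf1, Uhrf2 and Dnmt1. The E2F motif, searched as TTTCCCGC, TTTCGCGC, TTTGCCGC and TTTGGCGC on both strands, was present in 2.26% of all 32851 windows of this length and in 2 of these 13. The CCAAT box, searched as CCAAT on both strands, was present in 37.4% of all windows, and the E-box CACGTG, the site MYC binds, in 7.15%. The letters ATCGAT, searched on both strands, were present in 0.925% of all windows and in 0 of the 13. In the lines that follow, capitals mark E2F and CCAAT letters. The Uhrf1 stretch is the 250 bases before the start at 56304313, and the Uhrf2 stretch the 250 bases before the start at 30030513. The Dnmt1 lines are short sites around its E2F letters, the first on the opposite strand, with only the E2F letters in capitals.
Uhrf1, chr17:56304063-56304312, plus strand: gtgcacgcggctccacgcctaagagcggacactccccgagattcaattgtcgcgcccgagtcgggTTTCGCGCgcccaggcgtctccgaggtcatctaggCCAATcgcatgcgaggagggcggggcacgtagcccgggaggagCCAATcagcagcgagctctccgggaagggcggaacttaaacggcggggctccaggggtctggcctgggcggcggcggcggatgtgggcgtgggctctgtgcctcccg
Uhrf2, chr19:30030263-30030512, plus strand: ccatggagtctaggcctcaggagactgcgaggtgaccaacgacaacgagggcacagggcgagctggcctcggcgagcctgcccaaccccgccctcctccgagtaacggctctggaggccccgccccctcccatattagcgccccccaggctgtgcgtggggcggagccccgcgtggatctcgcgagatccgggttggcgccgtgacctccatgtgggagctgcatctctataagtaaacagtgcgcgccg
Dnmt1, chr9:20952824-20952853, minus strand: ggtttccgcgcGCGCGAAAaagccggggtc
Dnmt1, chr9:20952574-20952601, minus strand: gcggggcagcgTTTGGCGCgggctgtgc
The Uhrf1 window around that start held 1 E2F match, starting 185 bases before the start, and 2 CCAAT matches, and its 300 bases held 33 CpG dinucleotides. The other Uhrf1 window, around the start at 56303337, held no E2F match, 3 CCAAT matches and 12 CpG. The Uhrf2 window held 28 CpG and none of the 4 motifs. The Dnmt1 window around the start at 20952623 held 2 E2F matches, 3 CCAAT matches and 33 CpG. The window of the outermost Dnmt1 start, at 20959888, held 2 CpG, 5 CCAAT matches and no E2F match. The median over all windows was 7 CpG. The CACGTG letters were found in 1 of the 13 windows, that of the Dnmt3a start at 3891744. A match is a description of letters and not a measured binding site.

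The 9 genes spanned a wide range of transcript levels. Per kilobase of exonic length, the Control means ran from 38.6 CPM per kb for Mbd2 down to 0.0766 CPM per kb for Tet1. Behind Mbd2 came Dnmt1 at 21.04 and Uhrf1 at 18.1 CPM per kb, whose Control libraries overlapped. A lower tier held Uhrf2 at 7.32 and Tet3 at 6.56 CPM per kb, which also overlapped, and then Tet2 at 2.40 and Dnmt3a at 1.33 CPM per kb, again with overlap. Dnmt3b stood at 0.397 CPM per kb, and its lowest Control library, at 0.152, lay under the highest Tet1 library, at 0.181 CPM per kb. The maintenance pair was therefore measured far above the de novo writers: in Control, Dnmt1 per kb was 15.8 ± 1.02 times Dnmt3a per kb (SD, n = 4), and in MIZ1KO 23.2 ± 5.63 times (SD, n = 3). In MIZ1KO the order changed in the middle, where every Tet3 library, at 5.39 or more, lay above every Uhrf2 library, at 4.48 CPM per kb or less. Exonic length is the union of annotated exons, so genes with long, little-used exons read low on this scale.

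**Figure D1:**
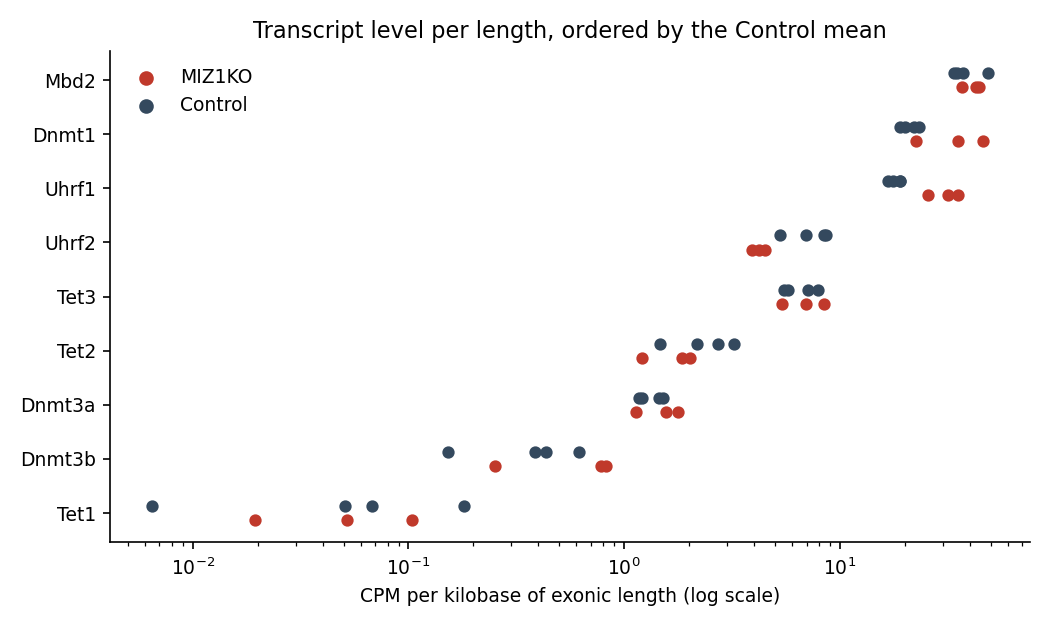
Level of each gene per kilobase of exonic length on a log axis, 1 point per library, Control in dark blue and MIZ1KO in red, ordered by the Control mean. Mbd2, Dnmt1 and Uhrf1 lie at the top, Dnmt3b and Tet1 at the bottom, and Uhrf2 is the gene whose MIZ1KO points all lie to the left of Control.

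Of the 9 genes, 8 passed the filter on low counts and 2 passed an adjusted p of 0.05 in edgeR's quasi-likelihood test over 11618 genes, Uhrf1 higher and Uhrf2 lower in MIZ1KO. Over all genes tested, 5.96% passed, 1.9% as higher and 4.05% as lower, and 19.5% had no overlap of CPM between the groups, 8.74% with MIZ1KO higher and 10.8% with it lower. The balance of directions rested on single libraries, with 299 higher and 196 lower without MIZ1KO replicate 2, and 22 higher and 17 lower without MIZ1KO replicate 1. Of the 9812 protein-coding genes tested 4.14% passed. A count of 2 among 8 lies above these shares of called genes, on too few genes to set the 9 apart. The median log2 fold change of the 8 was 0.12, beside -0.03 over all genes tested and 0.03 over the protein-coding genes tested. In bulk RNA, fewer cells of a type and less RNA per cell cannot be told apart, and this holds for every difference given here.

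Uhrf1, the reader that brings DNMT1 to replicated DNA, rose in MIZ1KO. It measured 135, 109 and 149.8 CPM in the 3 MIZ1KO libraries and 81.1, 75.45, 80.6 and 71.5 CPM in the 4 Control libraries. Every MIZ1KO library lay above every Control library, and the Control libraries kept close together. The means were 131 ± 20.4 CPM (SD, n = 3) and 77.1 ± 4.55 CPM (SD, n = 4), a log2 fold change of 0.77 ± 0.19 (SE), or 1.7-fold, with an adjusted p of 0.027 (edgeR). The gene (ENSMUSG00000001228) lies on chromosome 17 from 56303321 to 56323486 in GRCm38, overlaps no other annotated model, and rested on 485 to 1256 counts per library. On the log2 values the authors deposited, the difference was 0.54 with an adjusted p of 0.0279 (limma). Its direction held in all 20 alternatives and its call in 12. Leaving out 1 library took the adjusted p to 0.125 (MIZ1KO replicate 1), 0.1 (MIZ1KO replicate 3), 0.0803 (Control replicate 2) and 0.0815 (Control replicate 4). The call was also lost after a GC and length correction (0.059), against a minimum fold change of 1.5 (0.472) and with the nuclear RNA share as a covariate (0.249), where the log2 fold change stayed at 0.79.

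Uhrf2, the paralogue of UHRF1 that also binds methylated and hydroxymethylated DNA but does not replace it in maintenance, moved the other way. It measured 36.2, 38.5 and 33.8 CPM in MIZ1KO and 45.4, 59.6, 72.4 and 74.1 CPM in Control. No MIZ1KO library reached the lowest Control library, the MIZ1KO libraries close together and the Control libraries spread out. The log2 fold change was -0.80 ± 0.22 (SE), or 0.575-fold, with an adjusted p of 0.0442 (edgeR). The gene (ENSMUSG00000024817) lies on chromosome 19 from 30030513 to 30093722, overlaps no other model and rested on 210 to 739 counts. This call was close to the threshold. It remained in 4 of 20 alternatives and was lost on leaving out any single library but Control replicate 1. The adjusted p was then 0.188, 0.0868 and 0.126 for MIZ1KO replicates 1, 2 and 3, and 0.0905, 0.0968 and 0.161 for Control replicates 2, 3 and 4. With the nuclear RNA share as a covariate the log2 fold change was -0.14 (adjusted p = 0.897). Since that share did not overlap between the groups, the 2 cannot be told apart.

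The 2 paralogues were also set against each other. Since Uhrf1 was higher and Uhrf2 lower in every MIZ1KO library, their ratio had to separate the groups. Uhrf1 per kb over Uhrf2 per kb was 7.52, 5.74 and 8.94 in MIZ1KO and 3.602, 2.55, 2.24 and 1.95 in Control. Each MIZ1KO library thus had more Uhrf1 per Uhrf2 transcript than any Control library. The means were 7.40 ± 1.61 (SD, n = 3) and 2.59 ± 0.721 (SD, n = 4), given as a description with no test, since the ratio was chosen after the values of both genes were known. The GC content of the transcripts was 53.8% for Uhrf1 and 43.8% for Uhrf2. With both GC content and length corrected for, the log2 fold changes were 0.54 for Uhrf1 and -0.50 for Uhrf2 (adjusted p = 0.139).

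**Figure D2:**
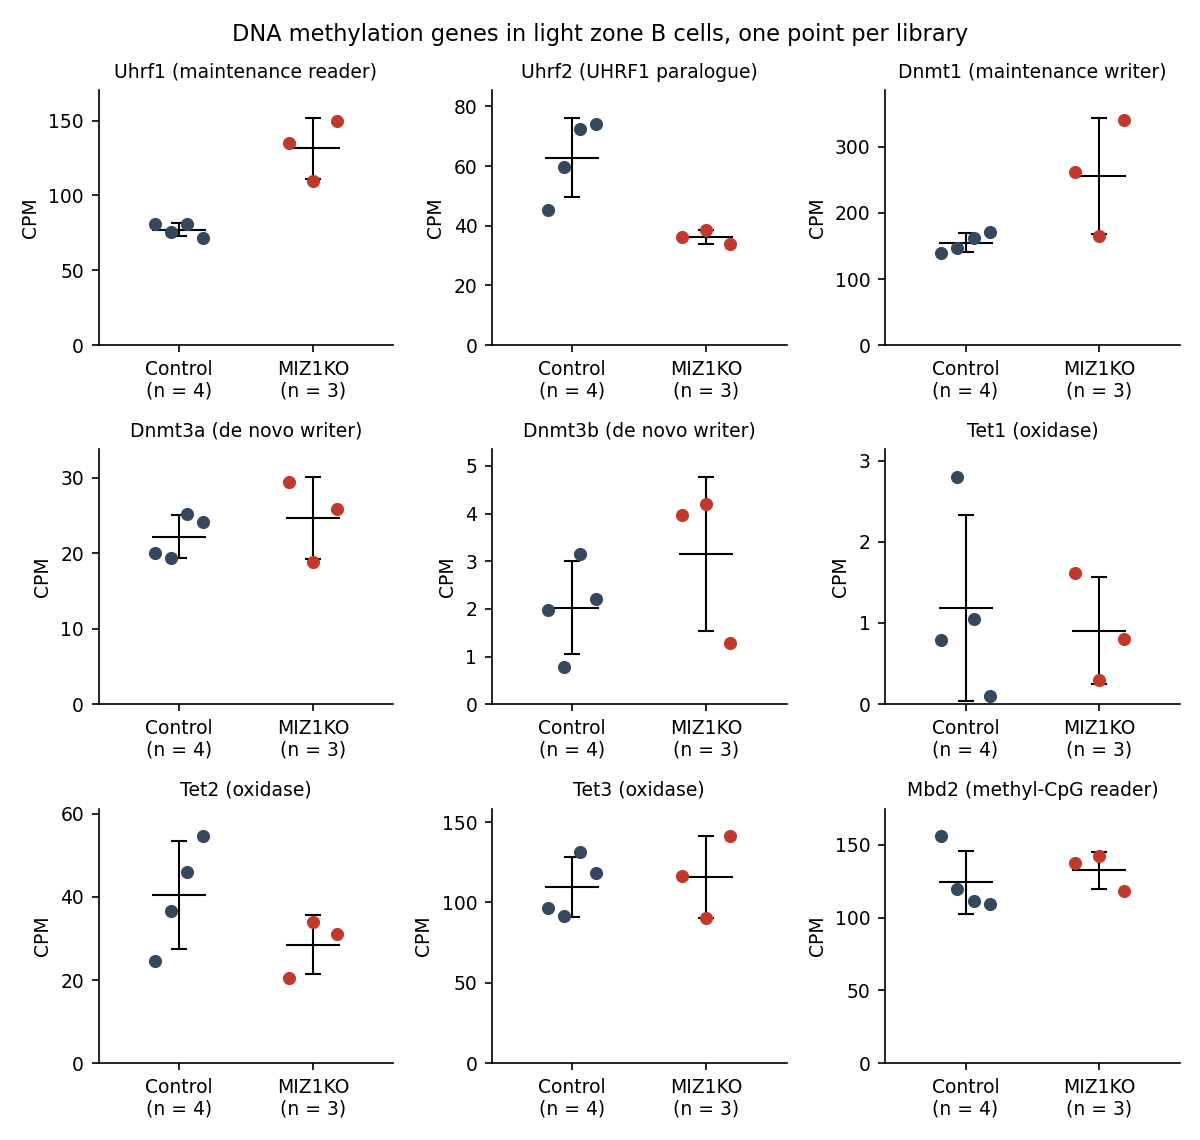
CPM of each of the 9 genes by group, 1 point per library, with the mean as a horizontal bar and the SD as an error bar; vertical axes start at 0 and differ between panels. Uhrf1 separates upwards and Uhrf2 downwards in MIZ1KO, Dnmt1 is high in 2 of 3 MIZ1KO libraries, and the other genes overlap between the groups.

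Dnmt1, the maintenance methyltransferase, was higher on average in MIZ1KO without passing the test. It measured 261, 165 and 341 CPM in MIZ1KO and 139.6, 147, 163 and 172 CPM in Control. MIZ1KO replicates 1 and 3 lay above every Control library, while MIZ1KO replicate 2 lay within the Control range. The log2 fold change was 0.72 ± 0.23 (SE) with an adjusted p of 0.0703 (edgeR). It passed without MIZ1KO replicate 2 (1.01, adjusted p = 0.0237) and in DESeq2 (0.75, adjusted p = 0.0311), and its direction held in all 20 alternatives, from 0.47 without MIZ1KO replicate 3 to 1.17 with the nuclear RNA share as a covariate. Dnmt1 (ENSMUSG00000004099) lies on chromosome 9 from 20907209 to 20959888 on the minus strand. It had the highest mean CPM of the 9 genes in both groups and rested on 945 to 2432 counts per library. The only model that overlaps it, the microRNA model Mir7081, had no counts.

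The de novo writers showed no difference that passed the test. Dnmt3a (ENSMUSG00000020661) lies on chromosome 12 from 3806007 to 3914443 and Dnmt3b (ENSMUSG00000027478) on chromosome 2 from 153649450 to 153687730, both on the plus strand of GRCm38. Dnmt3a measured 29.4, 18.8 and 25.9 CPM in MIZ1KO and 20.1, 19.4, 25.2 and 24.2 CPM in Control, so that its lowest and its highest library were both MIZ1KO. Its log2 fold change was 0.14 ± 0.25 (SE), with an adjusted p of 0.775 (edgeR). Dnmt3b was scarce, with 5 to 42 counts per library. It measured 3.98, 4.196 and 1.29 CPM in MIZ1KO and 1.97, 0.778, 3.15 and 2.205 CPM in Control, a log2 fold change of 0.68 ± 0.56 (SE) with an adjusted p of 0.485 (edgeR). At that depth its SE spans most of the change, and a difference of the size seen for Uhrf1 was not detectable. Dnmt3l, the catalytically inactive cofactor of the de novo enzymes, and Dnmt3c, a rodent paralogue that acts in male germ cells, had no counts in any library. Trdmt1, the relative that methylates tRNA, was the other family member tested, at -0.69 ± 0.51 (adjusted p = 0.429, edgeR).

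Of the TET enzymes, Tet3 was the main one measured, Tet2 came next and Tet1 was near its detection limit. All 3 lie on the minus strand: Tet1 (ENSMUSG00000047146) on chromosome 10 from 62804570 to 62908996, Tet2 (ENSMUSG00000040943) on chromosome 3 from 133463679 to 133545139 and Tet3 (ENSMUSG00000034832) on chromosome 6 from 83362373 to 83459084. Tet3 measured 116.5, 90.0 and 141 CPM in MIZ1KO and 96.4, 91.5, 132 and 119 CPM in Control. The groups lay across each other, with a log2 fold change of 0.08 ± 0.21 (SE) and an adjusted p of 0.866 (edgeR). A TEC model on the same strand, 5430434F05Rik, lies within the span of Tet3 without sharing exonic bases with 15.9 ± 10.9 CPM for MIZ1KO (SD, n = 3) against 27.7 ± 8.58 CPM for Control (SD, n = 4, adjusted p = 0.175, edgeR).

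Tet2 measured 20.4, 33.97 and 31.2 CPM in MIZ1KO and 24.7, 36.6, 45.9 and 54.7 CPM in Control. Control replicates 2, 3 and 4 lay above all MIZ1KO libraries, and Control replicate 1 lay among them. Its log2 fold change was -0.51 ± 0.28 (SE) with an adjusted p of 0.263 (edgeR), and with the nuclear RNA share as a covariate it turned to 0.72 (adjusted p = 0.468). Tet1 failed the filter on low counts, with 15, 3 and 5 counts in MIZ1KO and 6, 18, 8 and 1 in Control, so no test was made. Tet3 per kb over Tet2 per kb ran from 2.68 to 5.77 in MIZ1KO and from 2.19 to 3.95 in Control, ranges that overlap.

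Mbd2, which links methylated CpG to the NuRD complex, measured 137, 142 and 118 CPM in MIZ1KO and 156, 119.6, 112 and 109 CPM in Control. The highest library was Control replicate 1 and the groups overlapped. The log2 fold change was 0.10 ± 0.20 (SE) with an adjusted p of 0.815 (edgeR).

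**Figure D3:**
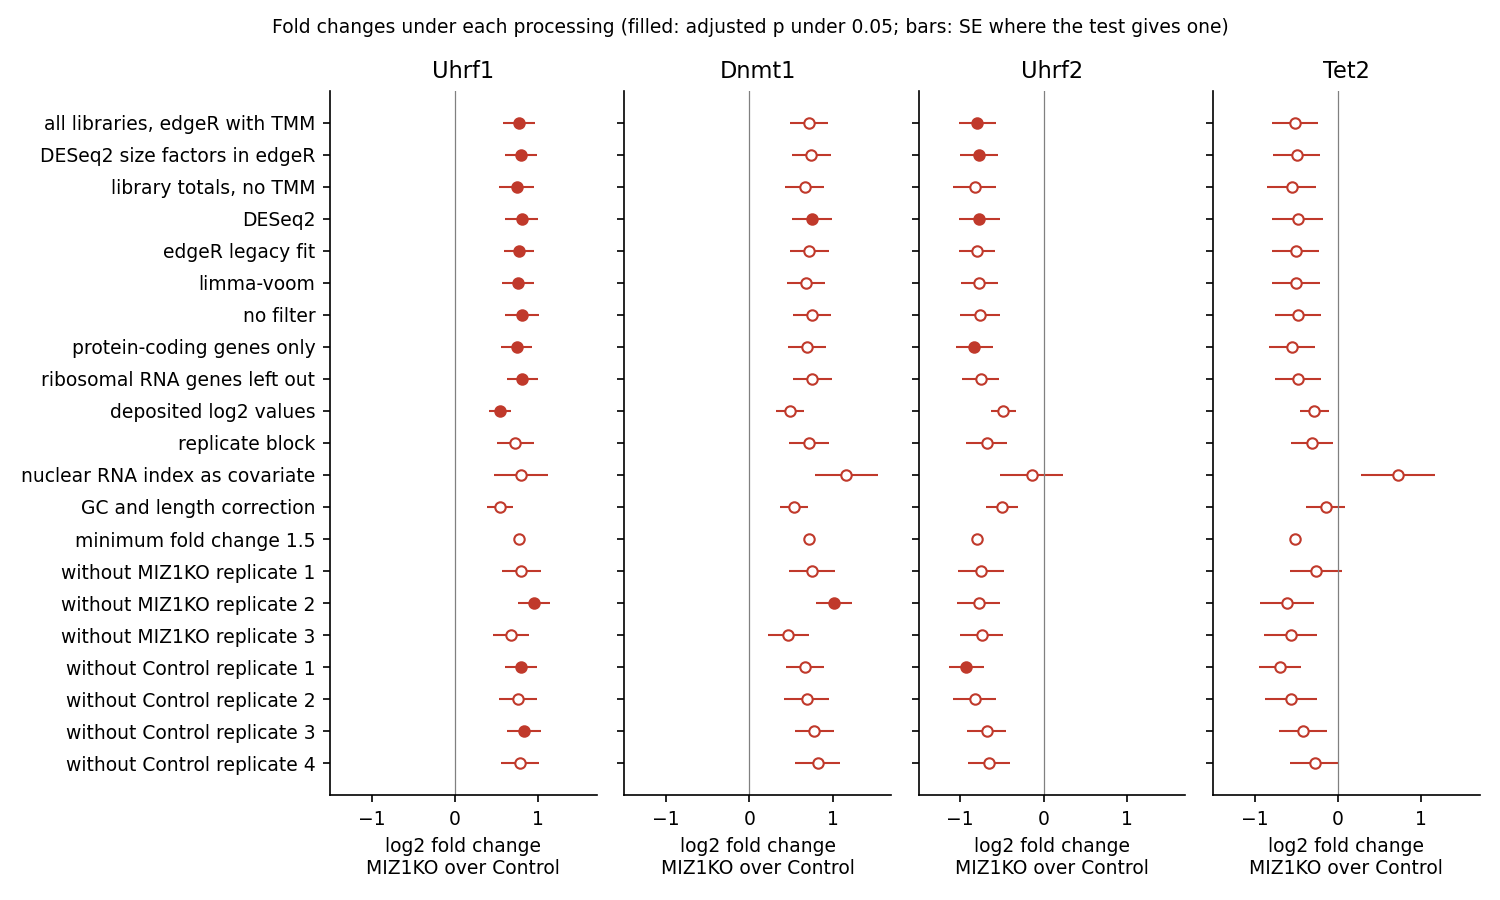
Log2 fold change of MIZ1KO over Control for Uhrf1, Dnmt1, Uhrf2 and Tet2 under each processing alternative, with bars for the SE and filled points for an adjusted p under 0.05. Uhrf1 and Dnmt1 stay to the right of 0 and Uhrf2 to the left in all rows, while Tet2 crosses 0 with the nuclear RNA share as a covariate.

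The levels of Uhrf1, Dnmt1, Uhrf2 and Tet2 were next set beside the nuclear RNA share of each library. In Control the share was 2.48% in replicate 1, 4.07% in replicate 2, 6.23% in replicate 3 and 5.41% in replicate 4. Uhrf2, Tet2 and Dnmt1 were all lowest in Control replicate 1, where the share was lowest, and highest in Control replicates 3 and 4, where it was highest. All 3 were higher in replicate 4 than in replicate 3, which had the larger share. Uhrf1 kept between 71.5 and 81.1 CPM over the same 4 Control libraries. Among MIZ1KO libraries, with shares of 1.19%, 1.48% and 1.999% in replicates 1, 2 and 3, Uhrf1 and Dnmt1 were highest in replicate 3 and Uhrf2 was lowest there. How far the share bears on these levels was not tested beyond the covariate fits above.

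**Figure D4:**
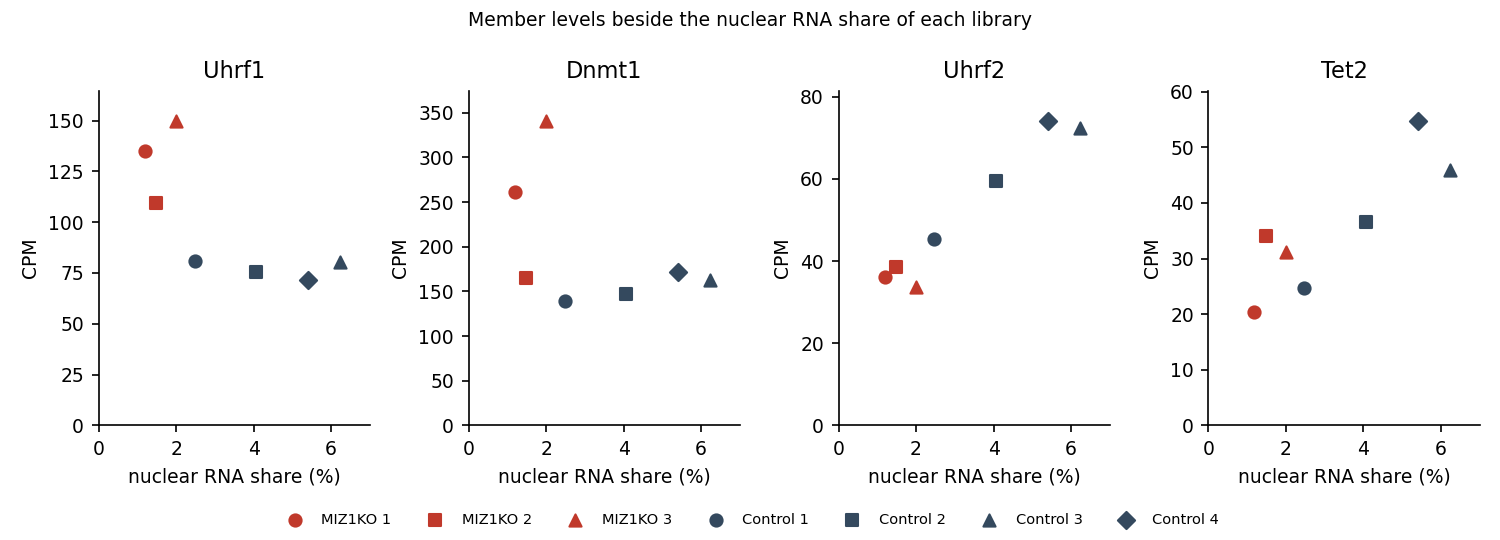
CPM of Uhrf1, Dnmt1, Uhrf2 and Tet2 against the nuclear RNA share of each library, with MIZ1KO in red, Control in dark blue and a symbol for each replicate number. All MIZ1KO libraries have shares of 1.999% or less and all Control libraries of 2.476% or more, and in Control the levels of Uhrf2, Tet2 and Dnmt1 are lowest in replicate 1, which has the lowest share.

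The partners of these genes were read from 10 pathway lists with 120 genes, of which 100 were tested and 7 passed over all genes, close to the 5.96% called among all genes tested. Among factors that act with UHRF1 and DNMT1, Ehmt2 rose, 1 of 9 tested, with 0 lower and a list median of 0.36 on the log2 scale. Ehmt2 encodes G9a, a histone H3 lysine 9 methyltransferase that also methylates the DNA ligase LIG1, a mark that UHRF1 reads. It measured 48.7, 32.7 and 57.9 CPM in MIZ1KO and 22.0, 18.7, 21.4 and 15.6 CPM in Control, without overlap. Its log2 fold change was 1.25 ± 0.25 (SE) with an adjusted p of 0.014 (edgeR), and it ended among single libraries only without MIZ1KO replicate 1 (0.071). With the nuclear RNA share as a covariate it measured 1.24 (adjusted p = 0.205). Cdca7, which brings the remodeller HELLS to chromatin, measured 0.68 ± 0.21 (adjusted p = 0.0653, edgeR), Hells itself 0.03 ± 0.21 (adjusted p = 0.945) and Lig1 0.54 ± 0.22 (adjusted p = 0.137). Zfp57 and Dppa3, factors of imprint protection in early embryos, had no counts.

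Readers other than Mbd2 gave no call. Of 7 tested methyl-CpG readers 0 passed, with a median of -0.14. Mbd3, the NuRD subunit related to MBD2, showed groups without overlap. It measured 26.9 ± 4.66 CPM in MIZ1KO against 15.75 ± 1.5 CPM in Control, a log2 fold change of 0.76 ± 0.25 (adjusted p = 0.0795, edgeR). The 7 tested readers of unmethylated CpG were all above 0, with a median of 0.35 and 0 calls. Among them were Kdm2b at 0.50 ± 0.26 (adjusted p = 0.247) and Cxxc1 at 0.43 ± 0.24 (adjusted p = 0.265, edgeR). Of the 7, 1 had no overlap between the groups, Cxxc1, beside 19.5% of all genes tested. The share of all tested genes above 0 was not counted, so the common direction is a description only.

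In the NuRD complex, Gatad2a rose and the other 11 subunits tested did not pass, with a median of 0.31. Gatad2a, a subunit that bridges the MBD proteins to the remodeller CHD4, measured 88.0, 77.6 and 80.6 CPM in MIZ1KO and 57.1, 33.8, 41.0 and 35.7 CPM in Control. All MIZ1KO libraries lay above all Control libraries, with a log2 fold change of 0.97 ± 0.22 (SE) and an adjusted p of 0.0189 (edgeR). The call was lost without MIZ1KO replicate 1 (adjusted p = 0.104), Control replicate 2 (0.0647) or Control replicate 4 (0.0573). With the nuclear RNA share as a covariate it measured 0.44 (adjusted p = 0.601).

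Among base excision and demethylation genes, Gadd45b rose and Neil3 fell, and the other 13 tested did not pass. Gadd45b, a stress-induced gene with a described part in active demethylation, rose by 0.94 ± 0.27 (adjusted p = 0.0497, edgeR). Neil3, a DNA glycosylase expressed in dividing cells, fell from 23.7 ± 8.61 to 10.8 ± 1.86 CPM, a log2 fold change of -1.15 ± 0.33 (adjusted p = 0.0469, edgeR), and the groups overlapped. Both calls lay at the threshold and survived the loss of Control replicate 1 alone. Without MIZ1KO replicates 1, 2 or 3 or Control replicates 2, 3 or 4, the adjusted p was 0.201, 0.114, 0.0774, 0.0958, 0.121 and 0.13 for Neil3 and 0.141, 0.0868, 0.0919, 0.114, 0.0845 and 0.118 for Gadd45b. With the nuclear RNA share as a covariate, Neil3 turned to 0.31 and Gadd45b shrank to 0.08. Tdg, the glycosylase that removes the oxidised bases TET enzymes make, measured 0.08 ± 0.27 (adjusted p = 0.894, edgeR).

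Of the genes that supply or bind the TET enzymes, Ogt fell and the other 13 tested did not pass. Ogt encodes the O-GlcNAc transferase that binds TET2 and TET3. It measured 61.7, 87.6 and 89.9 CPM in MIZ1KO and 115, 141, 204 and 175 CPM in Control, and the highest MIZ1KO library was under the lowest Control library. Its log2 fold change was -0.996 ± 0.23 (SE) with an adjusted p of 0.0212 (edgeR), and -0.04 with the nuclear RNA share as a covariate (adjusted p = 0.968). The call was lost without MIZ1KO replicate 1 (0.165) or Control replicate 4 (0.0815). In the methyl donor cycle 0 of 14 tested genes passed, with a median of 0.18. Mat2b, the regulatory subunit of methionine adenosyltransferase, measured -0.85 ± 0.28 (adjusted p = 0.0798), and the mitochondrial serine hydroxymethyltransferase Shmt2 0.65 ± 0.23 (adjusted p = 0.088, edgeR).

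**Figure D5:**
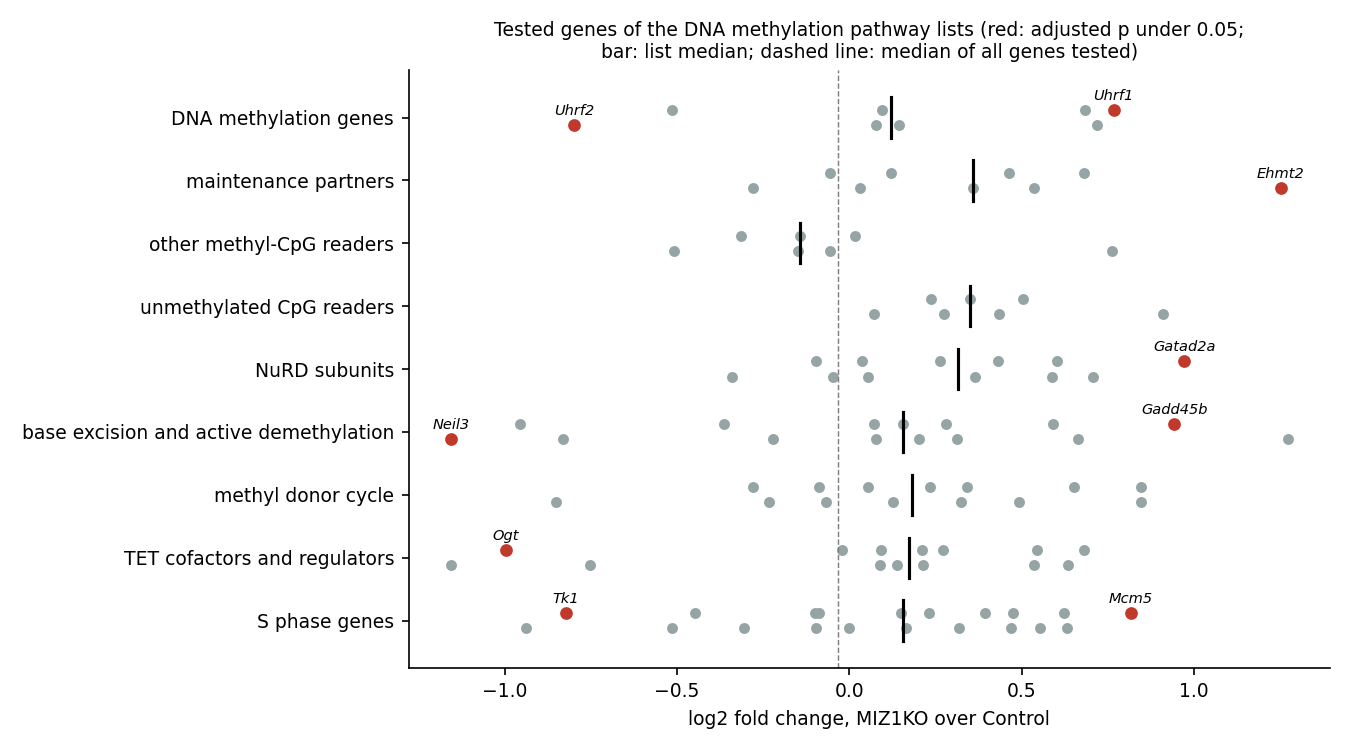
Log2 fold change of MIZ1KO over Control for each tested gene of 9 lists, with called genes in red and named, the list median as a black bar and the median of all genes tested as a dashed line. Most list medians lie between 0.12 and 0.36, and each list has at most 1 called gene in either direction.

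Uhrf1 and Dnmt1 are themselves transcribed mostly around S phase, so replication genes were set beside them. Of 20 S phase genes, Mcm5, a subunit of the replicative helicase, rose by 0.82 ± 0.19 (adjusted p = 0.022, edgeR), while the thymidine kinase gene Tk1 fell by 0.82 on the log2 scale (SE 0.23, adjusted p = 0.0455, edgeR), and 18 did not pass. The list median was 0.16, and 9 of the 20 had no overlap between the groups, 6 with MIZ1KO higher and 3 with it lower, beside 19.5% of all genes tested (8.74% higher and 10.8% lower). The summed level of the 20 genes was 1274 to 1386 CPM in MIZ1KO and 1062 to 1320 CPM in Control. As a share of that sum, Uhrf1 made up 9.74%, 7.99% and 11.8% in MIZ1KO and 6.14%, 6.29%, 7.59% and 6.43% in Control, with no overlap. Dnmt1 made up 12.1% to 26.8% in MIZ1KO and 10.6% to 15.4% in Control, with overlap. These shares are a description with no test, and the sum mixes genes that were higher with genes that were lower in MIZ1KO. Mean CPM in MIZ1KO and Control were 131 and 77.1 for Uhrf1, 136 and 77.1 for Mcm5, and 27.2 and 48.6 for Tk1. How far S phase bears on Uhrf1 was not tested. The Mcm5 call was lost without MIZ1KO replicate 1 (0.118), MIZ1KO replicate 3 (0.0746), Control replicate 2 (0.0694) or Control replicate 4 (0.0769). That of Tk1 held without Control replicate 1 and was lost without MIZ1KO replicates 1, 2 or 3 (0.178, 0.0501 and 0.158) or Control replicates 2, 3 or 4 (0.0955, 0.0678 and 0.125). With the nuclear RNA share as a covariate Mcm5 measured 0.63 (adjusted p = 0.367) and Tk1 -1.19 (adjusted p = 0.157).

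Markers of neighbouring and of other cells were read in the same libraries. The 10 dark zone markers summed to 2487 to 3083 CPM in MIZ1KO and 1786 to 2287 CPM in Control, a sum in which the proliferation genes Mki67 and Top2a weigh most, and 0 of the 10 passed the test. The 10 light zone markers summed to 787.5 to 870 CPM in MIZ1KO and 683 to 997 CPM in Control, with 0 calls. Of the T cell markers, Lck alone passed the filter, and the 9 summed to 43.1 to 50.5 CPM in MIZ1KO and 25.99 to 33.1 CPM in Control, with Cd3e at 4.04 and 0.139 CPM and Cd3g without counts in Control. The 8 myeloid markers summed to 54.5 to 98.6 CPM in MIZ1KO and 38.1 to 56.5 CPM in Control, with 0 of 4 tested called. Of the 11 germinal centre B cell markers, the B cell receptor subunit gene Cd79a rose by 0.86 ± 0.22 (adjusted p = 0.0333, edgeR) and Rgs13, a regulator of G protein signalling, fell by 1.32 on the log2 scale (adjusted p = 0.023, edgeR). The 7 follicular or memory B cell markers and the 6 red cell markers gave 0 calls, with sums that overlapped between the groups. The 6 plasma cell markers overlapped, at 177 to 255.5 CPM and 205 to 377 CPM. The part of these sums in the levels of Uhrf1, Uhrf2 and Dnmt1 was not tested.

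The genes most like each changed gene were looked up among 6301 protein-coding genes with a mean of at least 10 CPM, by Pearson's r of log2 CPM over the 7 libraries. These correlations hold the difference between the groups and the nuclear RNA share in common, and are a description. Uhrf1 went closest with Ehmt2 (r = 0.996), then Alkbh5 (0.987), Map3k11 (0.986), Mcm5 (0.984) and Esyt1 (0.984). Uhrf2 went closest with Kntc1 (r = 0.995), Slc16a6 (0.992), Ephx1 (0.982), Zcchc7 (0.981) and Rbm12b2 (0.975). Dnmt1 went closest with Tcof1 (r = 0.996), Gopc (0.99), Gbf1 (0.983), Naa60 (0.983) and Hcfc1 (0.981). Among the 9 genes themselves, Uhrf1 and Dnmt1 gave r = 0.88 and Uhrf1 and Uhrf2 r = -0.885, Uhrf2 and Tet2 gave 0.801, and Dnmt3a and Tet3 gave 0.834.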

How the data were processed

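RNA was measured by bulk RNA sequencing in 7 libraries, 3 MIZ1KO and 4 Control, grouped by the genotype label. The authors deposited expected counts per gene, not normalized, and log2 values normalized across the libraries. STAR 2.5.2, RSEM 1.3.0, DESeq2 1.18.1, R 3.4.3 and GRCm38 are named per the submitters' processing notes, with no role or order. The sources used here give neither the function behind the log2 values nor the annotation release or strand setting. Expected counts were rounded to whole numbers (6.61% of values were not whole). Genes were filtered with filterByExpr, scaled by TMM and tested by edgeR (version 4.0.16, R 4.3.3, quasi-likelihood, robust and non-legacy), two-sided, with Benjamini-Hochberg adjustment over 11618 genes. Each SE is the size of a log2 fold change divided by the square root of its F. CPM use the scaled library sizes, in which ribosomal RNA models are included, with a prior count of 2 for log2 CPM. Alternatives used DESeq2 1.42.0, limma 3.58.1, other scalings, filters and covariates, and left out each library. As a covariate, the nuclear RNA share entered on the log2 scale. On simulated data for this comparison with 11312 genes, 57 of 97 genes changed by 1.5 on the log2 scale and 8 of 95 changed by 0.8 were called, beside 11 unchanged genes called.

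All 9 genes are named, and from each pathway list every gene past the threshold or otherwise the 2 with the smallest p, as well as the 5 genes most like Uhrf1, Uhrf2 and Dnmt1. Cdca7, Hells, Lig1, Tdg, the TEC model in Tet3, genes without counts and the marker genes were added after values were seen. The 9 genes, the lists and the nuclear RNA share were chosen with earlier results of these data known. No 2 libraries of a group agreed within sampling noise (lowest chi-square per degree of freedom 15.7), so each library counted once. The 4 motifs are all that were searched. Promoter windows are RefSeq's on GRCm38.p6. Start-site windows of the 9 genes on mouse chromosome 18, where Mbd2 lies, were not searched and are not printed. Some results on genes of the lists are not reported here.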

Additional observations from a re-analysis of the deposited data

How the results depend on the processing

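The number of called genes among the 9 was 2 with all libraries. It was 3 in DESeq2, with Dnmt1 added, and 1 with library totals, the legacy fit, limma-voom, no filter, ribosomal RNA genes left out and the deposited log2 values, in each case Uhrf1. It was 0 with the replicate block, the nuclear RNA covariate, the GC and length correction and the minimum fold change of 1.5, and ran from 0 to 2 when single libraries were left out. Over all genes, 692 were called, against 1094 in DESeq2, 342 in limma-voom, 315 among protein-coding genes only, 340 with the GC and length correction (159 higher, 181 lower), 57 with the nuclear RNA covariate, 27 against the minimum fold change, and 39 to 1350 when single libraries were left out. Of the pathway list genes 7 were called, 3 with the replicate block, 0 with the nuclear RNA covariate, and 0 to 17 without single libraries. The replicate block called 476 genes over all and gave Uhrf1 0.72 (adjusted p = 0.0671) and Uhrf2 -0.68 (adjusted p = 0.111), and took the calls from Mcm5 (0.0602), Tk1 (0.0592), Neil3 (0.0764) and Gadd45b (0.0791). Same-numbered libraries gave correlations of 0.0233, 0.0665 and 0.162 for deviations from the group means. With so few libraries per group these values cannot settle whether the numbers pair the samples. MIZ1KO replicates 1 and 3 went best with the Control library of their own number, and MIZ1KO replicate 2 with Control replicate 1 (0.134). Signs turned for Tet3 with the GC and length correction (-0.085), without MIZ1KO replicate 3 (-0.078) and without Control replicate 2 (-0.0030; range without single libraries -0.078 to 0.293), for Mbd2 with the GC and length correction (-0.14) and the nuclear RNA covariate (-0.45), and under that covariate for Tet2 (0.72), Neil3 (0.31) and Kcnq1ot1 (0.63). The nuclear RNA share differed by -3.68 to -2.43 percentage points without single libraries. Beyond fewer samples or genes, the cause of these changes was not tested.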

Other observations

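A list of imprinted genes and genes described as silenced by promoter methylation was also read, though DNA methylation itself was not measured. Why most of these genes had few or no counts was not tested. Of 15 looked for, 9 had no counts in any library, the germline genes Dazl, Mael and Tdrd1 and the imprinted H19 and Igf2 among them. Over the whole count table, 28933 of 48795 gene identifiers had no counts, a similar share. Of the 15 genes, 1 passed the filter. That one, Kcnq1ot1, the imprinted antisense RNA of the Kcnq1 locus, stood at 224 ± 27.2 CPM for MIZ1KO (SD, n = 3) against 364 ± 157 CPM for Control (SD, n = 4), with overlap and a log2 fold change of -0.70 ± 0.29 (adjusted p = 0.141, edgeR). It passed without Control replicate 1 (-0.87, adjusted p = 0.0351, edgeR) and measured -0.43 without Control replicate 3 (adjusted p = 0.318). In Control it measured 231, 228.5, 528 and 467 CPM in replicates 1 to 4, high in the 2 libraries with the highest nuclear RNA share.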
